A study of Mus musculus with 8 samples.

Results

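The respiratory chain of mitochondria is built from 5 enzyme complexes whose subunits are encoded partly in the nucleus and partly in the mitochondrial genome. The genes described here are the nuclear-encoded subunits, chosen by name from the deposited table: Nduf followed by a, b, c, s or v and a digit, Sdha to Sdhd, Uqcr genes and Cyc1, Cox4 to Cox8 subunits, and names beginning with Atp5. This gave 85 of 34745 genes, namely 37 for complex I, 4 for complex II, 9 for complex III, 18 for complex IV and 17 for complex V, after 4 pseudogene rows were left out. The name rule itself uses no measured value, but it was set with earlier results of these data known. The name rule misses Ndufab1, the acyl carrier protein of complex I, and takes in Ndufa4 and Ndufa4l2, a subunit now assigned to complex IV and its paralogue. It also takes in Cox7a2l, a factor of supercomplexes, and Atp5s and Atp5sl, which carry an ATP synthase name without being subunits of the enzyme.

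RNA sequencing measured gene expression in skin lesions of mice aged 16 weeks and labelled male, in 2 groups of 4 libraries. The group labelled NcstnΔKC carried Ncstn flx/flx and Krt14 CreER+/-, a tamoxifen-dependent Cre recombinase under the promoter of a basal keratinocyte keratin, and was given tamoxifen at 20 mg/kg per day on 5 days, beginning at 8 weeks of age, with repeats every 10 days. The protein made from Ncstn is nicastrin, which γ-secretase needs to cut its substrates. For the normal group the protocol gives the same floxed alleles and Cre with corn oil in place of tamoxifen, while its genotype label reads wildtype. The agent therefore differs between the groups as well as the allele.

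Complex I takes electrons from NADH, complex II takes them from succinate, and both pass them to ubiquinone. Complex III hands them on to cytochrome c, complex IV reduces oxygen with them, and complex V, the ATP synthase, uses the proton gradient that complexes I, III and IV build. In complexes I, III and IV a catalytic core does the electron transfer and accessory subunits surround it. Skin epidermis is known for a high rate of glycolysis, while skeletal muscle and brown fat are rich in respiratory chain and use their own isoforms of some complex IV subunits.

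Total counts ran from 11881506 to 12893174 in the NcstnΔKC libraries and from 5835422 to 8663753 in the normal libraries. Ncstn had 66.8, 50.2, 57.8 and 56.2 CPM in NcstnΔKC replicates 1 to 4, against 60.7, 61.9, 61.3 and 58.4 CPM in normal replicates 1 to 4, and no difference was called in whole skin (log2 fold change -0.07 ± 0.12, SE; edgeR adjusted p = 0.663), and the label stands below for the libraries that carry it. Basal keratinocyte markers, 13 of 13 detected, took 1.37% to 2.02% of counts in NcstnΔKC libraries and 0.792% to 1.32% in normal libraries. Of these markers 10 were called higher and 2 lower, down to a log2 fold change of -2.61. Skeletal muscle markers took 3.23%, 0.561%, 1.15% and 1.26% of counts in NcstnΔKC replicates 1 to 4, against 2.31%, 10.1%, 16.1% and 13.01% in normal replicates 1 to 4 (exact two-sided permutation test, p = 0.0571, adjusted p = 0.0779 over 15 measures). The smallest p that 70 arrangements allow is 0.0286. Of 27 muscle markers 24 passed the filter and 23 were lower, and Myl2, a light chain of slow fibres, was at 0 in all 4 NcstnΔKC libraries. Adipocyte markers took 0.0852% ± 0.0479 in NcstnΔKC and 0.302% ± 0.153 in normal libraries (SD, n = 4 each). Transcripts of Xist numbered 36905 and 37109 in 2 NcstnΔKC libraries and 22304 and 24421 in 2 normal libraries, and at most 9 in the other 4, although every label reads male. Nothing in the labels says whether each library is a separate mouse, so p-values measure the spread between libraries.

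Of the 85 subunit genes 82 had enough counts to be tested. In edgeR's quasi-likelihood fit of 15684 genes, with Benjamini-Hochberg adjustment over all of them and a threshold of 0.05, 33 were lower and 6 were higher in NcstnΔKC skin, and 43 were not called. Lower calls made up 40.2% of the tested subunits, beside 22.7% of all genes tested, and higher calls 7.32%, beside 21.4%. Taken in either direction, 44.1% of all genes tested were called. The median log2 fold change was -0.42 over the subunits and -0.02 over all genes tested. Libraries of the 2 groups did not overlap for 35 subunits, 28 of them lower and 7 higher, while 41.6% of all genes tested had groups that did not overlap. Because 7 subunits (Cox6a2, Cox6b2, Cox7a1, Cox8b, Atp5g2, Atp5k and Atp5l) fell below 1 CPM in at least 1 library, the count was also taken without them: 28 of the other 75 were lower and 5 higher, with a median of -0.34.

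The counts of calls depended on how libraries were scaled. With total counts alone the median of all genes tested moved to 0.29, and 14 subunits were higher and 22 lower, beside 33.9% of all genes higher and 14.2% lower. Scaling by basal keratinocyte genes moved that median to -0.50, and 2 subunits were higher and 43 lower, beside 6.49% of all genes higher and 37.4% lower. The subunit median minus that of all genes was -0.39 in the main scaling, -0.39 with total counts and -0.41 with basal keratinocyte scaling. A change of scaling shifts all genes by nearly the same amount, so this difference could hardly move and is no separate check. The difference was -0.26 with limma on log2 FPKM plus 1. It was 0.11 with muscle markers in the model and 0.68 with basal keratinocyte markers in the model, both described below. In bulk skin, fewer cells of a type and less RNA per cell cannot be told apart.

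**Figure D1:**
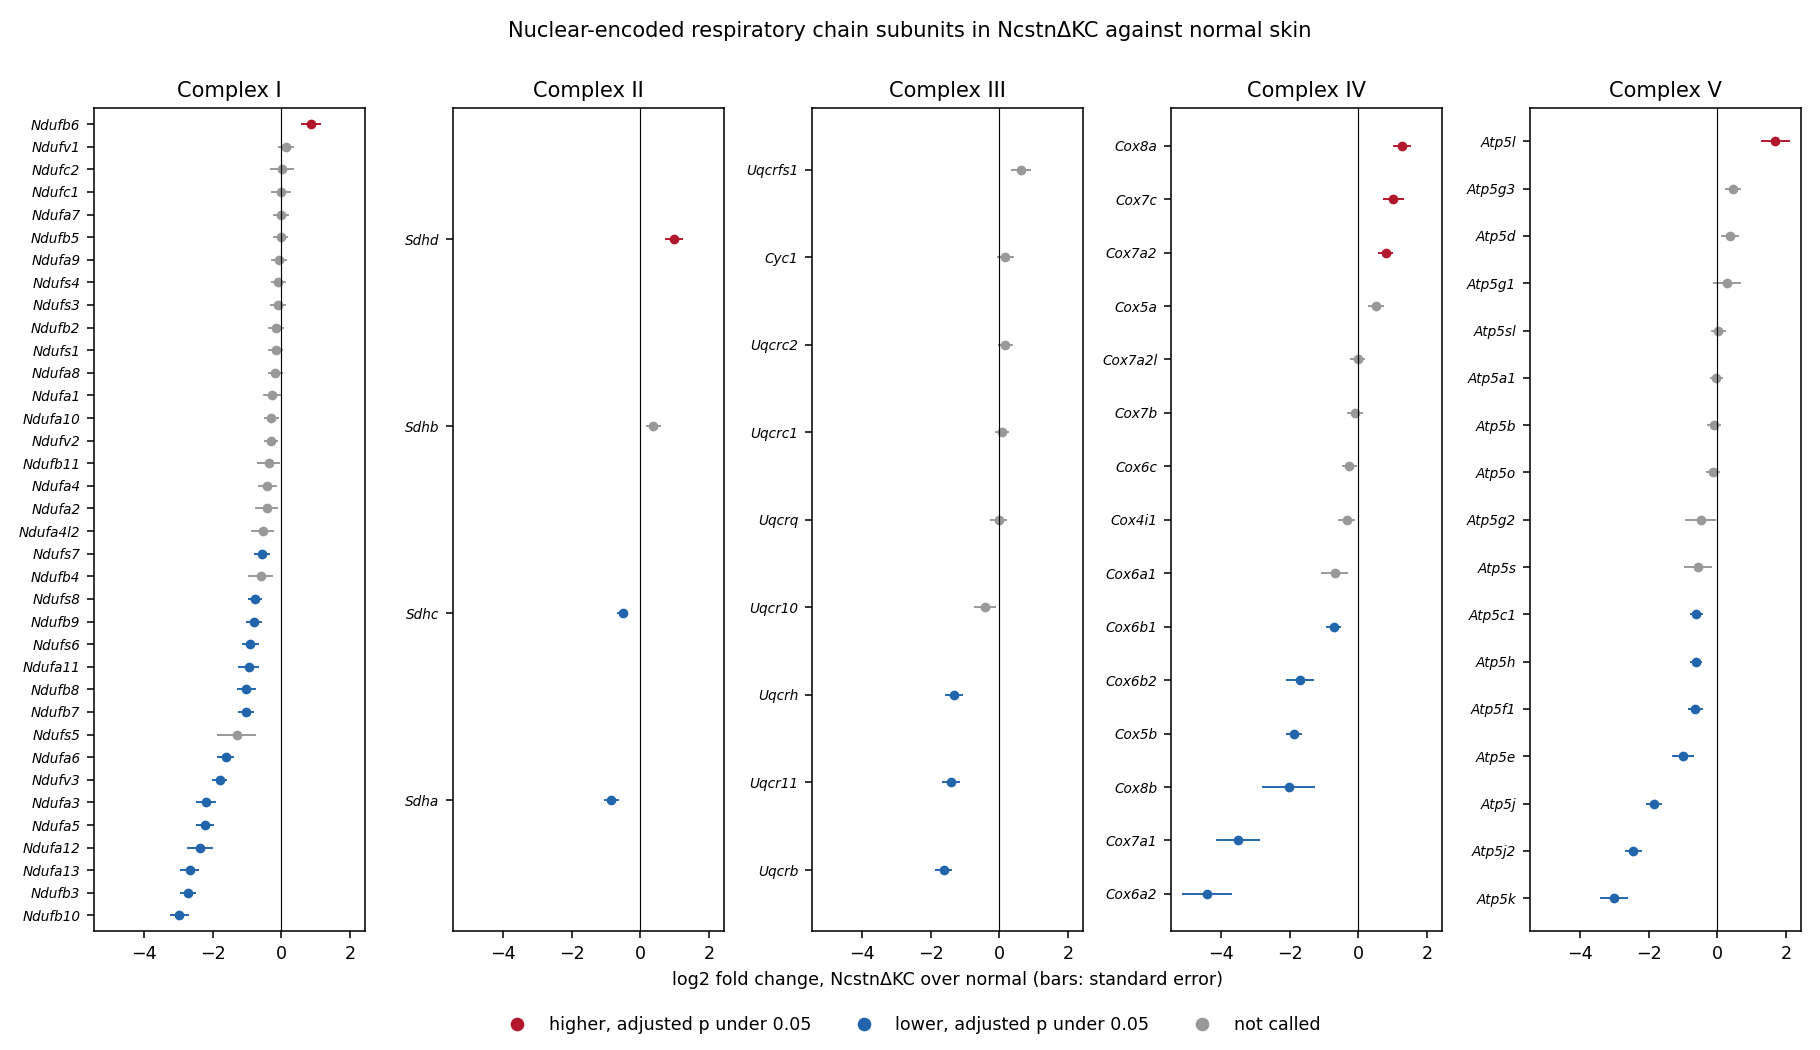
Log2 fold change of the tested subunits, NcstnΔKC over normal, by complex, without 1 that was not called (points; bars are standard errors; red higher, blue lower, grey not called at an adjusted p of 0.05). Lower calls number 15, 2, 3, 6 and 7 in complexes I to V, and higher calls 1, 1, 0, 3 and 1.

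In complex I, 15 of 37 subunits were lower and 1 was higher, with a median log2 fold change of -0.43. Of the 7 nuclear-encoded members of the catalytic core only Ndufs8 and Ndufs7 were called, both lower, and the median of the 7 was -0.17. Ndufs1, the large iron-sulphur subunit, had 84.1, 66.1, 68.7 and 63.9 CPM in the NcstnΔKC libraries, against 56.5, 80.03, 107 and 75.6 CPM in the normal libraries, and the groups overlapped (log2 fold change -0.17 ± 0.19, 95% interval -0.61 to 0.26). Ndufv1, which binds NADH and the flavin, averaged 35.97 ± 6.26 CPM in NcstnΔKC and 32.8 ± 7.05 CPM in normal skin (SD, n = 4 each). For Ndufv1 the difference was smaller than the spread between libraries. Ndufs8, which carries iron-sulphur clusters, had 9.48, 11.5, 12.2 and 14.2 CPM in the NcstnΔKC libraries, against 17.6, 21.6, 22.3 and 19.9 CPM in the normal libraries, with groups that did not overlap (log2 fold change -0.78 ± 0.17; edgeR adjusted p = 0.00676). Ndufs7 carries the last cluster before the quinone, and its fall (-0.56 ± 0.20; edgeR adjusted p = 0.0461) was called in 9 of 24 alternatives. Ndufs3 (-0.11) and Ndufv2 (-0.31) were not called.

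The accessory subunits of complex I held the largest falls of the complex. Ndufb10 of the membrane arm (mm10, ENSMUSG00000040048, chromosome 17, 24722060 to 24724478) had 8.31, 4.24, 5.67 and 7.59 CPM in NcstnΔKC replicates 1 to 4, against 42.1, 45.4, 63.96 and 50.8 CPM in normal replicates 1 to 4. Its groups lay far apart, 7.84-fold lower by the fitted value in NcstnΔKC skin (log2 fold change -2.97 ± 0.25, SE; edgeR adjusted p = 0.000107). Ndufb3, also of the membrane arm, had 4.78, 4.99, 3.39 and 5.78 CPM in the NcstnΔKC libraries, against 30.4, 27.01, 38.4 and 29.3 CPM in the normal libraries, a log2 fold change of -2.72 ± 0.21 (edgeR adjusted p = 9.12e-05). Ndufa13, known also as GRIM-19, had 5.79, 4.99, 5.46 and 8.60 CPM in the NcstnΔKC libraries, against 27.03, 44.1, 49.8 and 37.8 CPM in the normal libraries. No library of one group reached into the other for either gene (Ndufa13 log2 fold change -2.67 ± 0.25; edgeR adjusted p = 0.000163). Ndufa13 shares 33.2% of its 31-base stretches with other annotated genes and Ndufa12 shares 20.7%, so their levels are uncertain. Ndufa12 joins the matrix arm late in assembly and averaged 2.46 ± 0.821 CPM in NcstnΔKC and 12.8 ± 4.02 CPM in normal skin (log2 fold change -2.38 ± 0.35). Ndufa5 (-2.22 ± 0.24), Ndufa3 (-2.20 ± 0.26), Ndufv3 of the NADH-binding module (-1.79 ± 0.19) and Ndufa6, an LYR-motif protein that docks the acyl carrier protein (-1.62 ± 0.21), were also lower, each with groups that did not overlap. Smaller falls were called for Ndufb7 (-1.04), Ndufb8 (-1.02), Ndufa11 (-0.96), Ndufs6 (-0.90) and Ndufb9 (-0.81).

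Other accessory subunits of the same enzyme were not called or moved the other way. Ndufa9 averaged 28.6 ± 3.55 CPM in NcstnΔKC and 30.1 ± 7.44 CPM in normal skin, Ndufb5 averaged 33.4 ± 1.88 CPM in NcstnΔKC and 33.95 ± 9.35 CPM in normal skin, and Ndufs4 averaged 17.1 ± 0.957 CPM in NcstnΔKC and 18.2 ± 3.72 CPM in normal skin. These 3 differed by less than the spread between libraries, as did Ndufc1 (-0.02), Ndufc2 (0.02) and Ndufa7 (-0.02). Ndufb6 of the membrane arm was the only complex I gene called higher, with 6.80, 6.29, 5.94 and 6.78 CPM in the NcstnΔKC libraries, against 2.89, 2.42, 4.94 and 3.91 CPM in the normal libraries (log2 fold change 0.85 ± 0.25; edgeR adjusted p = 0.0236). It shares 34.4% of its 31-base stretches with other annotated genes, so its level is uncertain too. By family, 6 of 14 A subunits were lower and 0 higher, 5 of 10 B subunits lower and 1 higher, 2 of the 4 accessory S and V subunits lower, and 0 of the 2 C subunits called. Ndufs5 had 1.93, 4.71, 2.14 and 2.89 CPM in the NcstnΔKC libraries, against 7.29, 6.05, 13.8 and 1.82 CPM in the normal libraries, the widest scatter in the complex by standard error (-1.31 ± 0.55), and was not called. Ndufa4l2, a paralogue of Ndufa4 known to be induced by hypoxia, had 75.4 CPM in NcstnΔKC replicate 1 and 30.6 to 34.7 CPM in the other 3, against 52.2 to 82.3 CPM in normal libraries, and was not called.

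**Figure D2:**
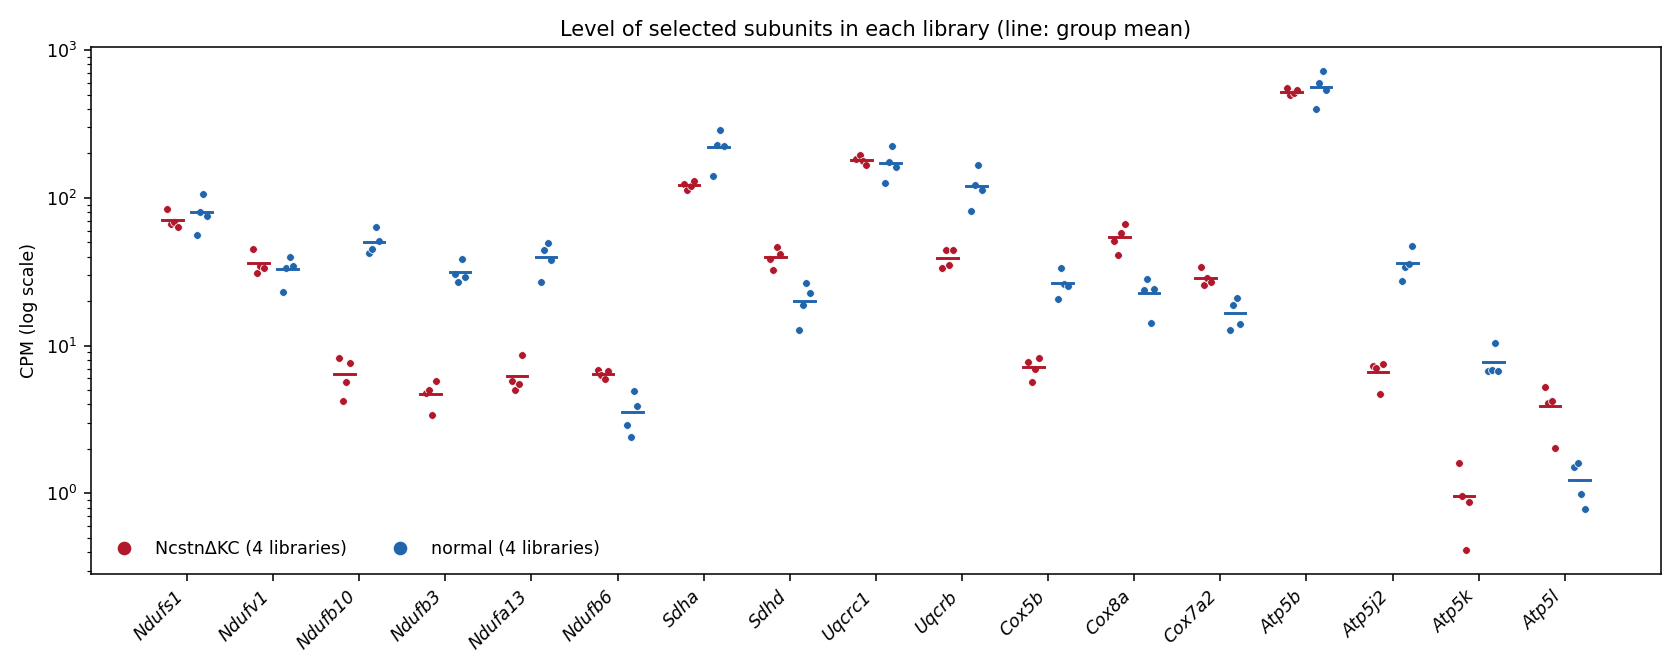
CPM of 17 subunits in each of the 4 NcstnΔKC libraries (red) and 4 normal libraries (blue) on a log axis, with a line at each group mean. Ndufv1, Uqcrc1 and Atp5b overlap between groups, while Sdha, Ndufb10, Ndufb3, Ndufa13, Atp5j2 and Atp5k lie lower in all 4 NcstnΔKC libraries.

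Promoters of subunit genes are known targets of nuclear respiratory factor 1 (NRF1) and the ETS factor GABP. Windows from 250 bases before to 50 bases after the start site were read from RefSeq's GRCm38.p6 table, which held 69 of the 85 genes with 75 start sites. NRF1's letters GCGCANGCG, read on both strands, occurred in 28.0% of the subunits' windows and in 6.25% of all 32851 windows of that length. The ETS letters CCGGAAG occurred in 21.3% and 8.86%, and the oestrogen-related receptor element AAGGTCA in 10.7% and 4.72%. MEF2's letters CTANNNNTA occurred in 14.7% and 21.0%, and the E-box CANNTG in 69.3% and 72.3%. NRF1 letters were present in 11 of the 32 windows of lower subunits, 2 of the 6 of higher subunits and 8 of the 37 of subunits not called. ETS letters were present in 9, 4 and 3 of them in the same order. The windows of Ndufb10 and Ndufb6, the complex I genes at either end of the range, are printed 5′ to 3′ on the strand of the gene, with matches to NRF1, ETS, oestrogen-related receptor and MEF2 letters in capitals. The first holds 1 NRF1 match across the start site, and the second 1 ETS match near its far end (chr17:24724374-24724673 and chr4:40279372-40279671, both minus strand).
Ndufb10: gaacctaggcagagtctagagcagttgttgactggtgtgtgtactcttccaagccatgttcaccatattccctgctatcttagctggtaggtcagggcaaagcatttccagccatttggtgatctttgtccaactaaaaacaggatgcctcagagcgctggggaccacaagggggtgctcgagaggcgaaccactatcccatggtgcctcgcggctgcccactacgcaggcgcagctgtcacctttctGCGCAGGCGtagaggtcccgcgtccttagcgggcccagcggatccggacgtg
Ndufb6: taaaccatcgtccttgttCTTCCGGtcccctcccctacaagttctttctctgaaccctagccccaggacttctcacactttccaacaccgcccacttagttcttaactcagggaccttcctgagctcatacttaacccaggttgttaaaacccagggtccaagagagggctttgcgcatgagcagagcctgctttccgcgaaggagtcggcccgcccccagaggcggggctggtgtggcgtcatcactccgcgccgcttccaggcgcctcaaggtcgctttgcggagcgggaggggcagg

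Complex II is the only complex with no mitochondrially encoded subunit, and 3 of its 4 genes were called, in both directions. Sdha, the flavoprotein that oxidises succinate, had 124, 113, 121 and 131 CPM in the NcstnΔKC libraries, against 141, 226, 287 and 226 CPM in the normal libraries (log2 fold change -0.85 ± 0.20; edgeR adjusted p = 0.00824). The groups did not overlap, although normal replicate 1 lay close to the NcstnΔKC libraries. Sdhb, the iron-sulphur subunit that works beside it, had 42.4, 37.6, 40.6 and 34.9 CPM in the NcstnΔKC libraries, against 21.7, 26.8, 38.7 and 33.2 CPM in the normal libraries and was not called (0.37 ± 0.19; edgeR adjusted p = 0.140). Of the membrane anchors, Sdhc was lower, with 29.1, 30.00, 30.5 and 29.9 CPM in the NcstnΔKC libraries, against 34.3, 43.1, 50.3 and 43.5 CPM in the normal libraries (log2 fold change -0.52 ± 0.14; edgeR adjusted p = 0.0158). Sdhd, the other anchor, was higher, with 38.3, 32.4, 46.3 and 41.98 CPM in the NcstnΔKC libraries, against 12.8, 18.7, 26.4 and 22.8 CPM in the normal libraries (log2 fold change 0.98 ± 0.23; edgeR adjusted p = 0.00838). For the anchors every library of each group lay on its own side. Among the alternatives run, Sdha lost its call on the authors' FPKM, with the muscle covariate (-0.18) and with the basal keratinocyte covariate. Sdhc lost its call in 7 of 24, among them total-count scaling (-0.19), FPKM, no filter, the muscle covariate (-0.24) and leaving out normal replicate 3 or 4. Sdhd lost its call with basal keratinocyte scaling (0.49) and with the basal keratinocyte covariate.

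In complex III the catalytic and large core subunits were not called and 3 of the 5 small subunits were lower. Cyc1, cytochrome c1, averaged 28.01 ± 6.22 CPM in NcstnΔKC and 24.9 ± 4.85 CPM in normal skin, and Uqcrc1 averaged 181 ± 11.8 CPM in NcstnΔKC and 172 ± 40.8 CPM in normal skin. Uqcrc2 averaged 100.1 ± 4.60 CPM in NcstnΔKC and 89.3 ± 22.8 CPM in normal skin, so for these 3 genes the difference was smaller than the spread between libraries. Uqcrfs1, the Rieske iron-sulphur protein, had 65.8, 35.3, 44.6 and 36.4 CPM in the NcstnΔKC libraries, against 18.7, 31.4, 37.8 and 30.7 CPM in the normal libraries (log2 fold change 0.62 ± 0.26; edgeR adjusted p = 0.0866). Uqcrb had 33.4, 44.3, 35.3 and 44.2 CPM in the NcstnΔKC libraries, against 81.4, 121, 167 and 112 CPM in the normal libraries, with groups that did not overlap (log2 fold change -1.62 ± 0.22; edgeR adjusted p = 0.000722), but shares 34.8% of its 31-base stretches with other genes. Uqcrh, the hinge protein between cytochromes c1 and c, averaged 18.8 ± 5.59 CPM in NcstnΔKC and 47.3 ± 9.31 CPM in normal skin (log2 fold change -1.33 ± 0.23; edgeR adjusted p = 0.00235). Uqcr11 averaged 3.78 ± 0.722 CPM in NcstnΔKC and 10.01 ± 1.56 CPM in normal skin (log2 fold change -1.41 ± 0.22). Of the remaining small subunits, Uqcr10 had a log2 fold change of -0.42 and Uqcrq of -0.02, and neither was called.

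Complex IV split by isoform. All 3 muscle isoforms were lower, and of the 10 general subunits 3 were higher and 2 lower. Cox6a2, the heart and skeletal muscle form of subunit 6a (mm10, ENSMUSG00000030785, chromosome 7, 128205435 to 128206387), had 9.31, 0.888, 3.25 and 4.90 CPM in NcstnΔKC replicates 1 to 4, against 32.95, 109, 147 and 97.6 CPM in normal replicates 1 to 4. This was the largest fall among the tested subunits, with a log2 fold change of -4.40 ± 0.69 (edgeR adjusted p = 0.00142), and the groups did not overlap. Cox7a1, the muscle and brown fat form of subunit 7a, had 1.85, 0.205, 1.11 and 0.672 CPM in the NcstnΔKC libraries, against 3.95, 10.3, 17.1 and 11.7 CPM in the normal libraries (log2 fold change -3.50 ± 0.62; edgeR adjusted p = 0.00249). Cox8b, the muscle and brown fat form of subunit 8, had 1.51, 0.0683, 0.760 and 0.806 CPM in the NcstnΔKC libraries, against 0.607, 3.63, 3.95 and 4.56 CPM in the normal libraries, where the lowest normal library lay within the NcstnΔKC range. This fall (-2.03 ± 0.73; edgeR adjusted p = 0.0490) was called in 7 of the 23 alternatives that gave it a p. Cox6b2, a testis form, had at most 2.22 CPM in any library and was lower (-1.69 ± 0.37). Cox4i2, a form known from lung, was too low to be tested, at 0.547 to 1.34 CPM in NcstnΔKC and 0.651 to 3.43 CPM in normal libraries. Cox7b2 and Cox8c had 0 counts in all 8 libraries.

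Among the general subunits, Cox8a had the largest rise, with 51.4, 41.3, 58.1 and 66.7 CPM in the NcstnΔKC libraries, against 23.8, 28.2, 14.3 and 24.1 CPM in the normal libraries (log2 fold change 1.27 ± 0.23; edgeR adjusted p = 0.00275). Cox7a2, the general form of subunit 7a, had 33.98, 25.6, 28.5 and 26.8 CPM in the NcstnΔKC libraries, against 12.8, 18.7, 20.9 and 13.9 CPM in the normal libraries (log2 fold change 0.79 ± 0.20; edgeR adjusted p = 0.0106). Cox7c averaged 6.33 ± 0.844 CPM in NcstnΔKC and 3.16 ± 1.08 CPM in normal skin (log2 fold change 1.02 ± 0.28), and for these 3 genes no library of one group reached into the other. Cox7c shares 24.5% of its 31-base stretches with other genes. Cox5b, a zinc-binding matrix-side subunit, went the other way, with 7.80, 5.67, 6.98 and 8.26 CPM in the NcstnΔKC libraries, against 20.7, 33.5, 26.1 and 25.4 CPM in the normal libraries (log2 fold change -1.88 ± 0.20; edgeR adjusted p = 0.000268). Cox5a, its neighbour in the enzyme, had 28.6, 19.8, 23.6 and 23.5 CPM in the NcstnΔKC libraries, against 11.8, 18.5, 19.8 and 16.5 CPM in the normal libraries. The groups did not overlap for Cox5a, yet it missed the threshold (0.52 ± 0.20; edgeR adjusted p = 0.0588). Cox6b1 was lower (-0.72 ± 0.19), while Cox4i1 (-0.34), Cox6a1 (-0.70), Cox6c (-0.26) and Cox7b (-0.10) were not called. The supercomplex factor Cox7a2l averaged 48.1 ± 12.2 CPM in NcstnΔKC and 48.98 ± 5.79 CPM in normal skin.

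The change of isoform was followed as the share of each form in its pair, from the authors' FPKM, which are scaled by length. Cox6a2 made up 48.8%, 14.3%, 29.2% and 33.7% of Cox6a1 plus Cox6a2 in NcstnΔKC replicates 1 to 4, against 68.1%, 83.5%, 94.5% and 92.7% in normal replicates 1 to 4. Cox7a1 made up 10.1%, 1.63%, 7.45% and 4.94% of Cox7a1 plus Cox7a2 in NcstnΔKC libraries, against 39.1%, 53.2%, 62.9% and 63.5% in normal libraries. For both pairs the groups were apart. Cox8b made up 4.23%, 0.248%, 1.93% and 1.79% of its pair with Cox8a in NcstnΔKC libraries, against 3.69%, 16.2%, 29.4% and 22.2% in normal libraries. Here normal replicate 1 fell within the NcstnΔKC range, and that library also had the lowest share of muscle markers of its group. The share of Ndufa4l2 in its pair with Ndufa4 was 77.8% ± 5.30 in NcstnΔKC and 80.0% ± 3.85 in normal libraries. Among the 3 genes for the c subunit, Atp5g3 took 80.5% ± 4.41 in NcstnΔKC and 77.0% ± 5.45 in normal libraries (SD, n = 4 each). In these last sets the difference was smaller than the spread.

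**Figure D3:**
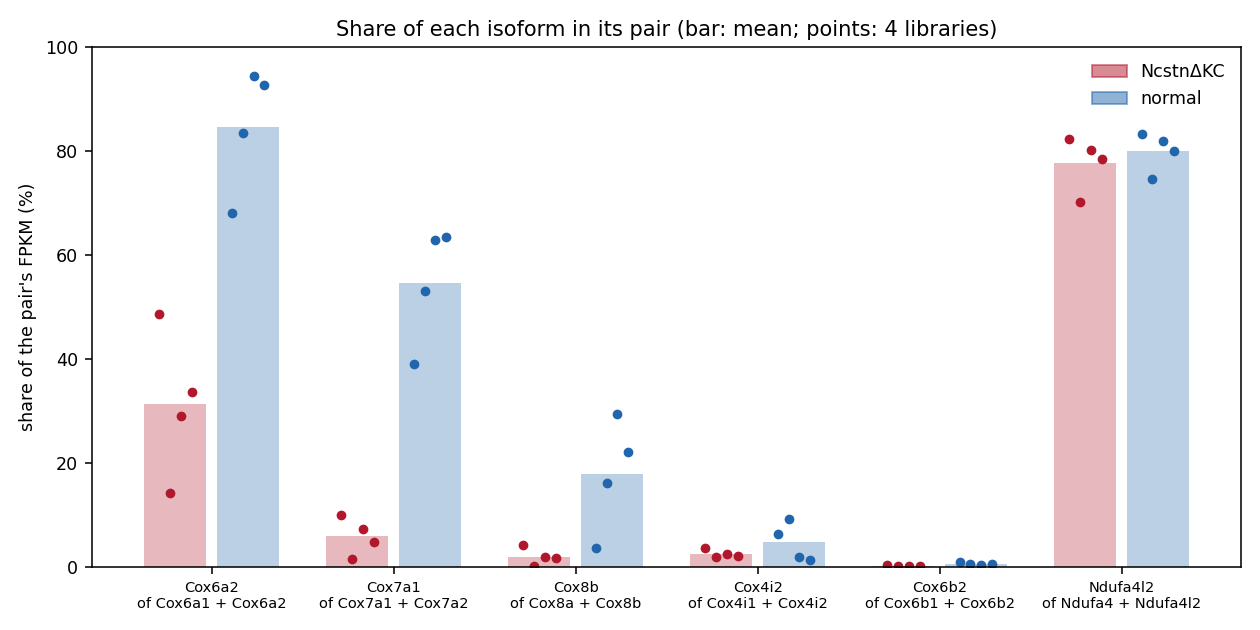
Share of an isoform in the FPKM of its pair, in NcstnΔKC (red, left) and normal libraries (blue, right); bars are means and points the 4 libraries. In NcstnΔKC libraries Cox6a2 averages 31.5%, Cox7a1 6.03% and Ndufa4l2 77.8%, while in normal libraries Cox6a2 averages 84.7%, Cox7a1 54.7% and Ndufa4l2 80.0%.

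The windows around the start sites of the muscle forms Cox7a1 and Cox8b are set beside those of Cox7a2 and Cox8a, since the members of each pair moved in opposite directions. They lie at chr7:30183921-30184220 (plus strand), chr9:79759804-79760103, chr7:140900397-140900696 and chr19:7217567-7217866 (minus strand) in GRCm38.p6, and capitals mark the same letters as above. Cox7a1 and Cox7a2 each hold 1 MEF2 match, Cox8a holds 2 ETS matches, and Cox8b holds no capital letters. E-boxes, which are not capitalised, occur in all of these windows, with 2 in Cox8b, and in 72.3% of all windows.
Cox7a1: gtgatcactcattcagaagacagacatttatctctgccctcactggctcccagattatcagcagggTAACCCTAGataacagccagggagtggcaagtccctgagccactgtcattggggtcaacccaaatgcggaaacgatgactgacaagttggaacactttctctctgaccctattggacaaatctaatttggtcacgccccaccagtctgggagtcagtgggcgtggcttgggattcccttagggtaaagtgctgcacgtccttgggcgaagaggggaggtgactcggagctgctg
Cox7a2: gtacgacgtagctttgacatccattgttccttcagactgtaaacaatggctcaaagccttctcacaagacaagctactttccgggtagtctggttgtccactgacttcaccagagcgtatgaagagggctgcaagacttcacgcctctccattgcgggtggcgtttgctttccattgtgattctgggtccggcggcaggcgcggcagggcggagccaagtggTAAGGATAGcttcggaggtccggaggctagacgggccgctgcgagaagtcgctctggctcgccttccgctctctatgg
Cox8b: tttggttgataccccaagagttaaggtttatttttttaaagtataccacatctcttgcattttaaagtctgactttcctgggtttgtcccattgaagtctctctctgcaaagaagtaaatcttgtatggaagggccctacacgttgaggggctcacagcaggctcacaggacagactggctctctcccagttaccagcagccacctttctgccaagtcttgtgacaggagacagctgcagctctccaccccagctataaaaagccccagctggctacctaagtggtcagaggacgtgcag
Cox8a: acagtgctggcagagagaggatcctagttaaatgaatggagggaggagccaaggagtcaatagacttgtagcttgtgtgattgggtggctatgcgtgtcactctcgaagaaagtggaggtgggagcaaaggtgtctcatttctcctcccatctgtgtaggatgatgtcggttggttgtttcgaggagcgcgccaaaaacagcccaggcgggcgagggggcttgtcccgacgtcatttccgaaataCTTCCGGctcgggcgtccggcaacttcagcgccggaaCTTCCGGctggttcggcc

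In complex V, 7 of 17 genes were lower and 1 was higher. The main subunits of the catalytic head were not called: Atp5a1, the α subunit, averaged 404 ± 44.6 CPM in NcstnΔKC and 415 ± 75.4 CPM in normal skin, and Atp5b, the β subunit, 523 ± 25.3 CPM in NcstnΔKC and 562 ± 133 CPM in normal skin, with groups that overlapped for both. Their log2 fold changes were -0.04 (95% interval -0.40 to 0.33) and -0.10 (95% interval -0.51 to 0.30). Atp5c1, the γ shaft, was lower, at 61.4, 49.95, 56.9 and 56.6 CPM in the NcstnΔKC libraries, against 67.7, 92.3, 108 and 76.2 CPM in the normal libraries (log2 fold change -0.61 ± 0.16; edgeR adjusted p = 0.0137). Atp5e, the ε subunit, was lower (-1.01 ± 0.29) and Atp5d, the δ subunit, was not called (0.36). On the stalk, Atp5j, coupling factor 6, had 19.6, 16.5, 19.3 and 26.9 CPM in the NcstnΔKC libraries, against 55.7, 79.2, 90.6 and 68.4 CPM in the normal libraries (log2 fold change -1.84 ± 0.20; edgeR adjusted p = 0.000306). Atp5f1, subunit b, was lower (-0.64 ± 0.18), as was Atp5h, subunit d (-0.62 ± 0.14), while Atp5o, which caps the stalk, was not called (-0.13) and shares 49.6% of its 31-base stretches. The 3 genes for the c ring, Atp5g1 (0.27), Atp5g2 (-0.49) and Atp5g3 (0.45), were not called.

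The 3 small membrane subunits of complex V were all called, in both directions. Atp5j2, subunit f, had 7.30, 7.04, 4.70 and 7.46 CPM in NcstnΔKC replicates 1 to 4, against 27.5, 33.9, 35.7 and 47.2 CPM in normal replicates 1 to 4, a log2 fold change of -2.44 ± 0.23 (edgeR adjusted p = 0.000153). Atp5k, subunit e, had 1.59, 0.957, 0.415 and 0.873 CPM in NcstnΔKC replicates 1 to 4, against 6.68, 6.85, 10.4 and 6.77 CPM in normal replicates 1 to 4 (log2 fold change -3.00 ± 0.39; edgeR adjusted p = 0.000589). Subunits e and g sit together where ATP synthase dimers meet, and the gene for g went the other way: Atp5l had 5.29, 4.10, 4.22 and 2.01 CPM in NcstnΔKC replicates 1 to 4, against 1.52, 1.61, 0.988 and 0.782 CPM in normal replicates 1 to 4 (log2 fold change 1.68 ± 0.39; edgeR adjusted p = 0.00792). All 3 genes had groups that did not overlap, although Atp5k and Atp5l rest on few counts. Atp5s and Atp5sl, the genes that share only the name, were not called (-0.56 and 0.03).

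Summed over its subunits in TMM-scaled CPM, each complex was lower on average in NcstnΔKC libraries, and the groups overlapped in every complex. Complex I summed to 810.2, 632.4, 656.6 and 662.7 CPM in NcstnΔKC replicates 1 to 4, against 780, 1062, 1282 and 1022 CPM in normal replicates 1 to 4. Complex II averaged 231 ± 11.8 CPM in NcstnΔKC and 313 ± 79.4 CPM in normal libraries, and complex III averaged 444 ± 28.6 CPM in NcstnΔKC and 527 ± 123 CPM in normal libraries. Complex IV averaged 428 ± 42.6 CPM in NcstnΔKC and 573 ± 126 CPM in normal libraries, and complex V 1330.5 ± 105 CPM in NcstnΔKC and 1545 ± 314 CPM in normal libraries (SD, n = 4 each). With total counts in place of the scaled library size, complexes III and V were higher on average in NcstnΔKC libraries. Complex III averaged 494 CPM in NcstnΔKC and 462 CPM in normal libraries, and complex V 1479 CPM in NcstnΔKC and 1357 CPM in normal libraries. The sum of all 85 genes was then 3471 ± 110.5 CPM in NcstnΔKC and 3507 ± 496 CPM in normal libraries. On the authors' FPKM, complexes II and V were higher on average in NcstnΔKC libraries, and complexes I, III and IV were lower. Complex II averaged 84.5 FPKM in NcstnΔKC and 68.8 FPKM in normal libraries, and complex V 297 FPKM in NcstnΔKC and 278 FPKM in normal libraries. Sums are led by abundant genes such as Atp5b and Atp5a1, and no test was made of them.

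**Figure D4:**
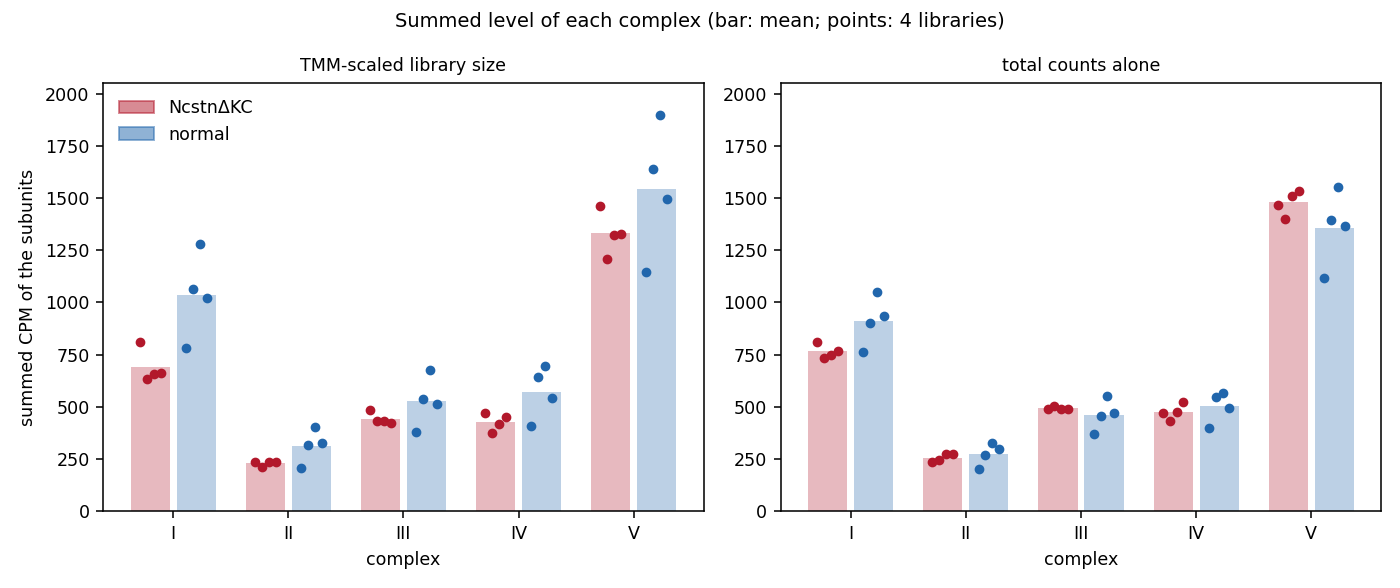
Summed CPM of the subunits of each complex in NcstnΔKC (red, left) and normal libraries (blue, right), scaled by TMM (left panel) and by total counts alone (right panel); bars are means, points the 4 libraries. Complex I averages 690.5 CPM in NcstnΔKC and 1036 CPM in normal libraries in the left panel, and 766 CPM in NcstnΔKC and 911 CPM in normal libraries in the right.

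Several marker lists moved with these falls. Beside muscle and adipocyte markers, 9 of 9 tested hair follicle markers were lower (median -3.69), as were 5 of 8 sebaceous gland and 6 of 10 suprabasal keratinocyte markers, while 9 of 9 tested neutrophil markers were higher (median 5.80). Of the suprabasal markers 1 was higher. Only 2 of 9 fibroblast and 2 of 6 endothelial markers were lower, beside 22.7% of all genes tested. Hair follicle markers took 3.21% of counts in normal replicate 2 and 0.0203% to 0.0642% in the other normal libraries. The part of the hair follicle, sebaceous gland, suprabasal and neutrophil lists in the subunit changes was not tested. Brown adipocyte markers took 0.0110% of counts in NcstnΔKC and 0.00616% in normal libraries, and Ucp1, the defining gene of brown fat, had at most 2 counts in any library. Yet of the 4 brown adipocyte markers tested 1 was higher and 2 were lower, with a median log2 fold change of -1.48. NcstnΔKC replicate 1 and normal replicate 1 had similar shares of muscle markers, 3.23% and 2.31%, and 30 of the 33 lower subunits were lower in the first library than in the second, a comparison of 1 library with 1 library chosen after the values were seen. Both libraries were in the fit that called these genes, so the direction was largely set by the choice: the share was 90.9% for the subunits and 93.3% for all 3555 genes called lower. Ndufa11, Ndufs7 and Cox8b were the exceptions. In NcstnΔKC replicate 1 Ndufb10 was at 8.31 CPM, Ndufb3 at 4.78, Atp5j2 at 7.30 and Cox5b at 7.80, while normal replicate 1 had 42.1 CPM for Ndufb10, 30.4 for Ndufb3, 27.5 for Atp5j2 and 20.7 for Cox5b. These genes were also called with both libraries in the fit, so their values are no separate check on muscle content. Over the 33 genes the level in NcstnΔKC replicate 1 was 53.2% of that in normal replicate 1 at the median (47.4% over all genes called lower), and the ratio of group means was 32.6% at the median. With the mean log2 CPM of the muscle markers in the model, which correlated with the group (r = -0.83 over the 8 libraries, a description), 11 subunits were lower and 4 higher. In that fit 5.83% of all genes were lower and 5.46% higher. The 11 were Ndufb10, Ndufb3, Ndufa13, Ndufa5, Ndufa3, Ndufv3, Cox5b, Cox6a2, Atp5j, Atp5j2 and Atp5k, all of them lower in the main comparison too. The median of the subunits was then 0.14. With Xist class in the model 31 subunits were lower and 6 higher. Basal keratinocyte markers correlated with the group at 0.96, and with them in the model 0 subunits were called in edgeR (10 higher and 2 lower at an unadjusted p under 0.05). Of all genes 0.0191% were higher and 0.0638% lower in that fit, so that content and group cannot be told apart there.

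Falls were more frequent among subunits with short transcripts. Of the 48 subunits whose representative coding transcript had at most 1000 bases, 25 were lower (52.1%) and 5 higher, with a median log2 fold change of -0.71. Among all 821 genes of that length 27.8% were lower and 24.8% higher, with a median of -0.03. Of the 34 subunits with longer transcripts 8 were lower (23.5%) and 1 higher, with a median of -0.08, while 22.4% of all 13142 such genes were lower and 22.3% higher. Rank correlation of the log2 fold change with transcript length was 0.33 over the 82 subunits and -0.01 over 13963 genes, given as a description, since genes share libraries. For GC content it was -0.24 over the subunits and -0.01 over all genes. The catalytic subunits are among the longer transcripts, so role and length cannot be told apart here. Subunits that share at least 10% of their 31-base stretches with other genes numbered 31, of which 14 were lower and 3 higher. Among the other 51, 19 were lower and 3 higher.

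**Figure D5:**
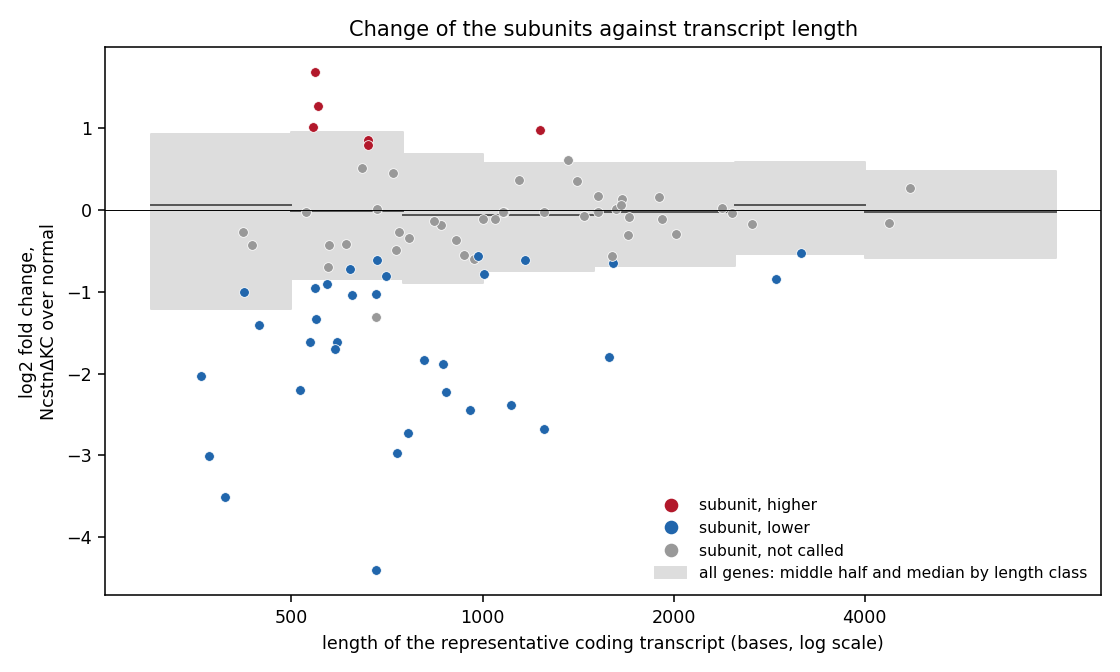
Log2 fold change of the 82 tested subunits (points; red higher, blue lower, grey not called) against the length of the representative coding transcript on a log axis, over the median and middle quartiles of all genes in 7 length classes (grey). Most strong falls lie at or under 1000 bases, where the median of the subunits is -0.71, while the median of all genes of that length is -0.03.

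Genes that work with these subunits were counted from lists in the same fit. Of 13 mitochondrially encoded subunits 7 were tested and 6 were lower, among them mt-Cytb of complex III (-3.59 ± 0.29), mt-Nd2 and mt-Nd5 of complex I (-4.84 ± 0.35 and -4.59 ± 0.34) and mt-Co1 of complex IV (-2.15 ± 0.26). Counts of several of these genes were all or nothing: mt-Nd4 had 9684 counts in NcstnΔKC replicate 1 and 0 in the other 7 libraries, and mt-Nd3, mt-Co3, mt-Atp6 and mt-Atp8 were at 0 in all 8. The mitochondrial genome took 0.817% ± 0.138 of counts in NcstnΔKC and 4.86% ± 0.967 in normal libraries (SD, n = 4 each; exact two-sided permutation test, p = 0.0286, adjusted p = 0.0476 over 15 measures). The genes Gm42418 and Lars2, at which ribosomal RNA reads are known to collect in mouse libraries, took 0.567% and 0.00152% of counts in NcstnΔKC libraries, against 8.20% and 0.131% in normal libraries. Gm26917, measured beside them, went the other way, with 4.84% ± 1.46 in NcstnΔKC and 0.883% ± 0.222 in normal libraries. No library of one group reached into the other for these shares or for total counts, so neither can be told apart from the group. The part of these shares in the mitochondrial counts and in the subunit falls was not tested.

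Of 46 tested assembly factors 13 were lower (28.3%) and 4 higher (8.70%), with a median of -0.19. Over all genes tested 22.7% were lower and 21.4% higher. Cox20, a chaperone of a complex IV core subunit, averaged 4.40 ± 0.636 CPM in NcstnΔKC and 23.03 ± 3.67 CPM in normal skin (log2 fold change -2.38 ± 0.19; edgeR adjusted p = 0.000104). Ndufaf2, a paralogue of Ndufa12 that holds its place during assembly, averaged 0.701 ± 0.203 CPM in NcstnΔKC and 4.82 ± 1.77 CPM in normal skin (log2 fold change -2.75 ± 0.37; edgeR adjusted p = 0.000732). Cox18 (1.38 ± 0.30), Sco2, a copper chaperone (1.22 ± 0.28), Ndufaf4 (0.98 ± 0.24) and Coa5 (0.41 ± 0.13) were higher. Among 17 tested carriers and close partners 7 were lower (41.2%) and 2 higher (11.8%). The ADP/ATP carriers went opposite ways: Slc25a4, the heart and muscle form, averaged 61.9 ± 31.2 CPM in NcstnΔKC and 243 ± 112 CPM in normal skin, and Slc25a5, a form of proliferating cells, averaged 219.6 ± 24.3 CPM in NcstnΔKC and 65.3 ± 18.5 CPM in normal skin (log2 fold changes -1.98 ± 0.47 and 1.75 ± 0.20). Slc25a3, the phosphate carrier, was higher (1.24 ± 0.19), and Atpif1, the inhibitor of ATP synthase, was lower (-2.11 ± 0.20; edgeR adjusted p = 0.000153).

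Of 17 tricarboxylic acid cycle and pyruvate dehydrogenase genes 7 were lower (41.2%) and 0 higher, with a median of -0.40. Sucla2, the ADP-forming succinyl-CoA synthetase subunit, averaged 47.3 ± 4.90 CPM in NcstnΔKC and 108 ± 27.6 CPM in normal skin (log2 fold change -1.19 ± 0.19; edgeR adjusted p = 0.00170), and Dld (-0.76 ± 0.17) and Idh3b (-0.96 ± 0.22) were lower as well. Of 13 tested regulators 3 were higher and 3 lower, 23.1% each way, near the 21.4% and 22.7% over all genes tested. Ppargc1a, the coactivator PGC-1α of mitochondrial biogenesis, averaged 4.88 ± 3.87 CPM in NcstnΔKC and 27.3 ± 10.9 CPM in normal skin (log2 fold change -2.49 ± 0.53; edgeR adjusted p = 0.00546), and Esrrg, a nuclear receptor it acts with, was also lower (-2.93 ± 0.48). Pprc1, a growth-induced relative of PGC-1α (0.84 ± 0.14), Esrra (0.81 ± 0.21) and Nrf1 (0.56 ± 0.15) were higher. For outer membrane, import and chaperone genes 3 of 13 (23.1%) were higher, namely Tomm40 (1.31 ± 0.20), Timm50 (0.87 ± 0.18) and Tomm22 (0.53 ± 0.13), and Vdac1 was lower (-0.67 ± 0.23). Of 20 glycolytic genes 6 were higher and 6 lower, 30.0% each way. The glucose transporter Slc2a1 averaged 386 ± 53.1 CPM in NcstnΔKC and 52.9 ± 9.23 CPM in normal skin (log2 fold change 2.86 ± 0.17; edgeR adjusted p = 5.20e-05), and Eno1 (2.02 ± 0.18) and Pfkl (1.32 ± 0.13) were also higher. Those lower included the muscle forms Pgam2 (-5.06 ± 0.70), Eno3 (-2.72 ± 0.71) and Pfkm (-2.17 ± 0.69).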

How the data were processed

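The authors deposited raw whole-number counts per Ensembl gene for every library, and per the submitters' processing notes TopHat2 2.0.9, TopHat and HTSeq were used and the builds mm10 and hg38 named, without roles or settings. The authors also deposited FPKM values, which followed the count divided by a length per gene and by the library's summed counts (largest relative deviation 0.00017 for counts of at least 50). That length exceeded the annotated span for 6 of the 85 genes, so FPKM levels of different genes compare only roughly. Annotation release and strand setting are not given in the sources used here. All 85 genes occur in GENCODE M21 for mm10, 57 with the same coordinates. Without a stated strand setting, reads from overlapping or antisense genes cannot be told apart.

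After filterByExpr and TMM scaling, 15684 genes entered the robust quasi-likelihood fit of edgeR 4.0.16 in R 4.3.3. Tests were two-sided, p-values were adjusted by Benjamini-Hochberg over all those genes, and calls were made under 0.05. The common biological coefficient of variation was 0.315. CPM divide a count by the TMM-scaled size of its library over the genes kept. Total counts were 5835422 to 12893174 per library, which limits precision for genes near 1 CPM. Alternatives used limma 3.58.1 and DESeq2 1.42.0, other scalings, filters and covariates, the replicate block, thinning to the smallest library, and each library left out. The representative transcript is the APPRIS principal one, and shared sequence is the share of 31-base stretches that also occur in another annotated gene. Python 3.11.15 with pandas 2.3.3, numpy 2.4.6 and matplotlib 3.10.9 handled tables and plots.

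Samples were grouped by their titles. Replicate numbers were not taken as pairs, since no label says that they pair animals. Members, gene lists (272 entries, 270 matched), tests and motifs were chosen with earlier results of these data known. Named genes were complex II, the catalytic cores, the tissue isoforms, in each complex the 3 called members with the lowest p and the 2 with the largest change, called members against the common direction, the 3 genes of lowest p in each pathway list, and others where a role is described. The comparison of 2 single libraries, the cut by shared sequence, the set without tissue isoforms and the basal keratinocyte covariate were chosen after seeing the data. One gene named by this rule is not reported here.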

Additional observations from a re-analysis of the deposited data

Results flagged for a closer look

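In 6 of 120 groups of 4 libraries tested, the highest or lowest library stood apart from the other 3 by more than Dixon's 95% critical value for the gap over the range, and chance flags about 1 in 20 groups. In NcstnΔKC replicate 1, Ndufa4l2 had 75.4 CPM, while the other 3 NcstnΔKC libraries had 30.6 to 34.7 CPM. The same library had the highest sums of its group for complex I, 810.2 CPM with 632 to 663 CPM in the others, and for complex III, 487 CPM with 425 to 434 CPM in the others. It was also the NcstnΔKC library with the largest share of muscle markers, and the part of that in these sums was not tested. Atp5j2 was lowest in NcstnΔKC replicate 3, at 4.70 CPM with 7.04 to 7.46 CPM in the others. In normal replicate 3, Cox6b2 was lowest at 1.41 CPM with 2.08 to 2.22 CPM in the others, and Atp5k was highest at 10.4 CPM with 6.68 to 6.85 CPM in the others.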

How the results depend on the processing

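The main comparison called 6 subunits higher and 33 lower, with a median log2 fold change of -0.42. Higher calls numbered 14 with total counts alone, 14 with limma on log2 FPKM plus 1, 2 with basal keratinocyte scaling, 3 at a log2 fold change of at least 1 (where 22 were lower), 3 among subunits with under 10% shared sequence, and 0 with the basal keratinocyte covariate. Lower calls numbered 11 with the muscle covariate, 19 with under 10% shared sequence and 0 with the basal keratinocyte covariate. The median was -0.092 with total counts, -0.059 on FPKM, -0.90 with basal keratinocyte scaling, -0.29 with no filter, -0.29 with under 10% shared sequence, 0.14 with the muscle covariate and 0.75 with the basal keratinocyte covariate. Leaving out each library in turn gave 5 to 9 higher and 26 to 35 lower calls, with medians of -0.52 to -0.26. Without the tissue isoforms and the Atp5s genes 6 were higher and 29 lower. A filter of at least 1 CPM in 4 libraries kept the same number of genes and calls, so it was no separate check.

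Deviations of same-numbered libraries from their group means correlated at -0.02, -0.04, -0.02 and 0.22 for replicates 1 to 4. Libraries with different numbers gave -0.20 to 0.24. These values cannot show whether the numbers pair animals, and no label says that they do. The replicate block gave 6 higher and 29 lower calls with a median of -0.42.

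For the named genes, 1093 values under an alternative lay on the same side of the threshold as in the main comparison, 1042 of them with the same sign and 51, called in neither, with the other. Of the rest 87 were no longer past it, 21 newly passed it and 10 called values changed sign. These counts include the sets by shared sequence and without tissue isoforms, which reuse the main fit for each gene. Their agreement was fixed in advance, as was the sign at a log2 fold change of at least 1. They also include the filter of at least 1 CPM, which kept the same number of genes and calls. With the muscle covariate Cox8b turned to 1.43 and Ndufs7 to 0.031. With the basal keratinocyte covariate, which follows the group at a correlation of 0.96, Atp5c1 turned to 0.45, Cox6a2 to 0.21, Cox6b1 to 0.80, Cox7a1 to 0.13, Cox8b to 2.99, Ndufs7 to 1.14, Sdha to 0.56 and Sdhc to 0.11. The cause was not tested.

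The log2 ratio of summed levels was -0.59, -0.44, -0.25, -0.42 and -0.22 for complexes I to V. It was -0.25, -0.094, 0.10, -0.077 and 0.12 with total counts, and on FPKM -0.42, 0.30, -0.15 and 0.10 for complexes I, II, IV and V. On counts in place of FPKM, the share in NcstnΔKC minus normal skin was -34.4 percentage points for Cox7a1, -11.5 for Cox8b, -1.01 for Cox4i2, -1.78 for Cox6b2 and -1.996 for Atp5g2, where FPKM gave -48.6, -15.8, -2.16, -0.33 and -3.64. Genes under about 1 CPM, such as Cox7a1, Cox8b and Atp5k in NcstnΔKC libraries, rest on few counts.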

Other observations

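Ubiquinone synthesis, which supplies the electron carrier between complexes I or II and III, held 4 lower genes: Coq9 (a log2 fold change of -1.32 ± 0.24), Coq7 (-0.85 ± 0.22), Coq3 (-0.78 ± 0.20) and Coq2 (-0.46 ± 0.14). Coq5 (-0.37), Coq4 (0.18), Coq6 (-0.09), Pdss2 (0.06) and Pdss1 (0.78) were not called. Ubiquinone synthesis was not a list of its own but part of the carriers and close partners. In that list 7 of 17 tested genes were lower (41.2%) and 2 higher (11.8%), beside 22.7% and 21.4% of all genes tested. Coq9 averaged 18.3 ± 3.81 CPM in NcstnΔKC and 45.6 ± 13.1 CPM in normal skin (SD, n = 4 each). Etfdh, which feeds electrons from fatty acid oxidation to ubiquinone, was lower (-0.53 ± 0.18; edgeR adjusted p = 0.0405). Cycs, which encodes the somatic cytochrome c, averaged 3.63 ± 1.19 CPM in NcstnΔKC and 2.58 ± 0.629 CPM in normal skin and was not called.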
